A study of Mus musculus with 16 samples.

Results

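Stathmins and growth-cone membrane proteins are among the most abundant products of a growing neuron. The 8 genes described here are *Stmn1*, *Stmn2*, *Stmn3* and *Stmn4*, which encode the stathmins, and *Gap43*, *Basp1*, *Marcks* and *Marcksl1*, which encode proteins of the inner face of the growth-cone membrane. They were taken by name from the 46320 genes of the count table, with earlier results of these data known, and all 8 passed the expression filter that left 19964 genes for testing. Per the methods of the study, the RNA came from cultures of lumbar motoneurons, taken from mouse embryos on day 13. They were enriched by panning for p75NTR, a receptor on their surface. In what follows the word motoneurons names these cultures by their label, since motoneuron markers were low in them, as described below. Microfluidic chambers let the axons of these cultures grow into a separate compartment, away from cell bodies. In all 4 groups both compartments received 5 ng/ml CNTF, and BDNF at 20 ng/ml was added to the axonal compartment alone. The groups were +/+ somatodendritic, *Hnrnpr*-/- somatodendritic, +/+ axonal and *Hnrnpr*-/- axonal, with 4 libraries each. The -/- animals lack hnRNP R in every cell, since the first exons of *Hnrnpr* were deleted in the germline by CRISPR/Cas9.

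A stathmin binds tubulin dimers and promotes the shrinkage of microtubules, and its phosphorylation releases the tubulin. Stmn1 is a soluble protein found in neurons and also in dividing cells. Stmn2, Stmn3 and Stmn4 are made mainly by neurons and carry an additional N-terminal stretch that is anchored to membranes by palmitoylation. Gap43, Basp1, Marcks and Marcksl1 bind acidic phospholipids, calmodulin and actin-regulating partners, and protein kinase C controls their hold on the membrane. *Gap43* mRNA is a well-known passenger of growing axons, in which it is bound by the RNA-binding protein HuD, encoded by *Elavl4*.

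The coding starts show this division of the 8 genes. Each line gives the first 90 bases, or 30 codons, of the coding sequence of the canonical transcript in GENCODE M39 on GRCm39, read 5′ to 3′ on the coding strand. Capitals mark TGC and TGT, the codons for cysteine to which palmitate can be attached, and a glycine codon directly after the start codon, which is where myristate is attached. They are shown because the 4 genes with these cysteine codons also had the widest fold range over all 8 axonal libraries. This description was made after the values were seen. Among the +/+ axonal libraries alone *Marcks* varied most, 4.86-fold. A wide range was not particular to these 4 genes: 8 genes of neuronal structure, named further on, summed to 345 to 2868 CPM in axonal libraries.
Stmn1: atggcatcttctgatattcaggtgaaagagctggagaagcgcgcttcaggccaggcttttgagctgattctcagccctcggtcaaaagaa
Stmn2: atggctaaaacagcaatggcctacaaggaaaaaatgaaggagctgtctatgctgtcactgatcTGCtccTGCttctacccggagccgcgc
Stmn3: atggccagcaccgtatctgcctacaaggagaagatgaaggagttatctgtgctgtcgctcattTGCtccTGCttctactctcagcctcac
Stmn4: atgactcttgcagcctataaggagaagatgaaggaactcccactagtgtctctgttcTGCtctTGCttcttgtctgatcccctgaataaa
Gap43: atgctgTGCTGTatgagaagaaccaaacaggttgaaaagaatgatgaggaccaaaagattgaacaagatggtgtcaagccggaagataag
Basp1: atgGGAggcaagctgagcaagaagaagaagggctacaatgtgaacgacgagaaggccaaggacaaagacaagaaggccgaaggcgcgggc
Marcks: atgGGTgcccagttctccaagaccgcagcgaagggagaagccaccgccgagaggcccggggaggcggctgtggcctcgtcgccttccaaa
Marcksl1: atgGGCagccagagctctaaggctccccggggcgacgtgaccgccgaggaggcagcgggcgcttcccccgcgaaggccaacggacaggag

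*Stmn2* and *Stmn3* hold cysteine codons at positions 22 and 24, *Stmn4* at 20 and 22, and *Gap43* at 3 and 4. *Stmn1* has none in these 30 codons, and its coding sequence of 447 bases is shorter than the 537, 540 and 567 bases of *Stmn2*, *Stmn3* and *Stmn4*. Over the aligned bases the coding sequences of the stathmins were 68.8 to 73.6% identical to each other, and those of *Marcks* and *Marcksl1* were 64.7% identical. The deposited counts of *Stmn1*, *Basp1* and *Marcksl1* held fractions in 16, 15 and 13 of the 16 libraries, so some of their reads were shared with other places in the genome and their levels are to that extent uncertain. The related gene *Stmnd1* held at most 5.00 counts in a library, and the pseudogene *Marcksl1-ps4* at most 16.2.

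The genes lie on 7 chromosomes. On GRCm39 *Stmn1* lies at chr4:134195631-134201154 with its start codon in exon 2 of 5, *Stmn2* at chr3:8574587-8626664 with the start codon in exon 1 of 5, *Stmn3* at chr2:180948252-180956293 in exon 1 of 5, and *Stmn4* at chr14:66581627-66599129 in exon 2 of 6. *Gap43* lies at chr16:42068915-42161014 with the start codon in exon 1 of 3 and *Basp1* at chr15:25363363-25413850 in exon 2 of 2. *Marcks* lies at chr10:37009239-37014922 and *Marcksl1* at chr4:129407374-129409774, both with the start codon in exon 1 of 2. The gene *Mir6540* lies inside *Gap43* on the same strand and held 0 counts in all 16 libraries.

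Total counts ranged from 22024923 to 34864151 per library. *Hnrnpr* had 178 to 241 CPM, a count relative to the TMM-scaled library total, in +/+ somatodendritic and 120 to 422 in +/+ axonal libraries, against 0.545 to 1.16 and 0.597 to 1.10 in -/- libraries, so the deleted gene matched the label in all 16. The labelled cell type was less well marked. The summed level of 9 motoneuron markers was 21.7 to 39.2 CPM in somatodendritic and 3.39 to 17.7 CPM in axonal libraries, *Chat* averaged 0.899 CPM in +/+ somatodendritic libraries, and *Mnx1* was at 0 in all but 1 of the 16 libraries. Markers of other cells were present in both compartments. The sum of 9 genes of astrocytes and radial glia was 987 to 2106 CPM in somatodendritic and 1946 to 4889 CPM in axonal libraries. That of 8 genes of oligodendroglia and Schwann cells was 251 to 1342 CPM in somatodendritic and 274.5 to 2091 CPM in axonal libraries. For 9 fibroblast, meningeal and pericyte genes it was 1132 to 10360 CPM in axonal against 80.6 to 1392 CPM in somatodendritic libraries. The sum of 8 genes of dividing progenitors was 347 to 1953 CPM in axonal and 146 to 286 CPM in somatodendritic libraries. In bulk RNA, fewer axons or cells of a type and less RNA in each of them cannot be told apart. Axonal RNA was also amplified with more PCR cycles and a larger reaction volume, so that the compartment and this difference in preparation cannot be told apart either.

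In the somatodendritic compartment all 8 genes were well expressed, and 5 of them stood near the top of all transcripts. Levels of different genes were compared as CPM per kilobase of exon, a level per length. *Stmn1* had 837 ± 145 (SD, n = 4) CPM per kb in +/+ libraries, *Gap43* 773 ± 49.6, *Stmn2* 742 ± 74.3, *Stmn3* 629 ± 36.6 and *Marcksl1* 520 ± 21.4. By this measure they ranked 19, 21, 25, 29 and 41 among the 19964 genes tested. *Basp1* followed with 233 ± 40.0, *Stmn4* with 169 ± 29.1 and *Marcks* with 79.9 ± 7.88 CPM per kb. The ranges of *Stmn1*, *Gap43*, *Stmn2* and *Stmn3* each overlapped with the next in this order, as did those of *Basp1* and *Stmn4*, whereas *Stmn3* and *Marcksl1*, *Marcksl1* and *Basp1*, and *Stmn4* and *Marcks* were apart in all 4 libraries. The order of the 8 genes was the same in -/- somatodendritic libraries.

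In +/+ axons the order was different. *Stmn1* remained first with 655 ± 69.1 CPM per kb (SD, n = 4) and *Marcksl1* came second with 437 ± 44.1. They were followed by *Gap43* with 296 ± 124, *Stmn3* with 271 ± 110, *Basp1* with 205 ± 29.9, *Stmn2* with 201 ± 93.4, *Marcks* with 121 ± 105 and *Stmn4* with 44.0 ± 21. *Stmn1* was above *Marcksl1* in all 4 libraries. From *Marcksl1* down, each neighbouring pair overlapped between libraries, except that the lowest *Marcks* library was above the highest of *Stmn4*, at 57.3 and 56.3 CPM per kb. *Stmn2* fell from rank 25 to rank 281 among all genes tested and *Stmn4* from 236 to 1892, while *Stmn1* moved from 19 to 40 and *Marcksl1* from 41 to 74. In -/- axons *Stmn1*, *Marcksl1*, *Gap43* and *Stmn3* again took the first 4 places in this order.

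**Figure D1:**
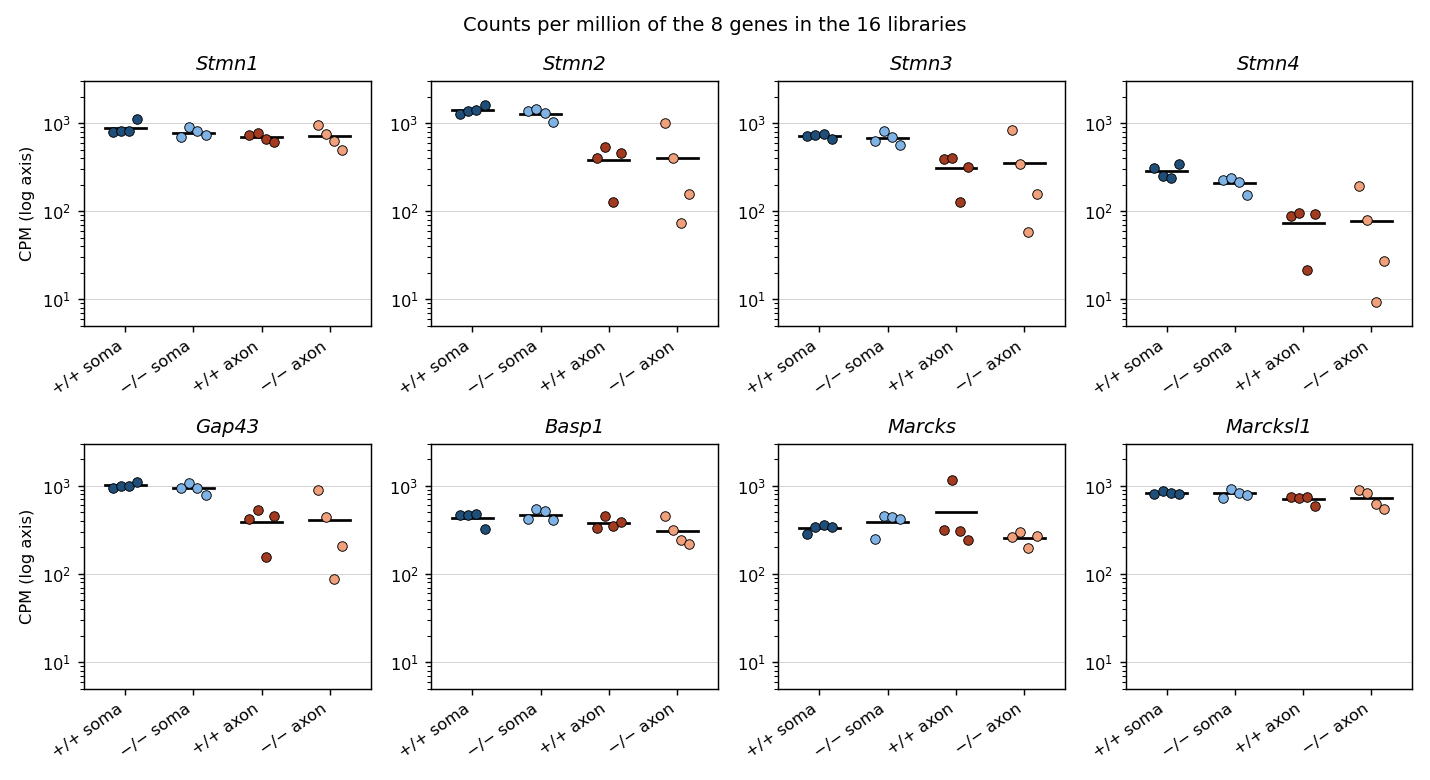
Levels of the 8 genes in each of the 16 libraries, in TMM-scaled CPM on a log axis. Points are libraries, 4 per group, and horizontal lines are group means. *Stmn2*, *Stmn3*, *Stmn4* and *Gap43* are low and widely spread in the axonal libraries (for *Stmn2* from 73.0 to 994 CPM), whereas *Stmn1*, *Basp1* and *Marcksl1* keep to a narrow band and 1 +/+ axonal library stands out for *Marcks* at 1165 CPM.

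The comparison of compartments asks which of these mRNAs make up a smaller or larger part of the axonal than of the somatodendritic transcriptome. In +/+ motoneurons *Stmn2*, *Stmn4* and *Gap43* were lower in axons relative to all transcripts, by 3.69-fold, 3.83-fold and 2.61-fold, but not relative to neuronal structural genes, a scale described further on that turned *Gap43* to a higher value. No member was called higher. These 3 of 8 members stood against a background of 57.5% of the 19964 genes called in either direction and 27.4% called lower, so a call in this comparison was common. The median log2 fold change over all genes tested was 0.07. In *Hnrnpr*-/- motoneurons *Stmn2* and *Basp1* were lower in axons, 2 of 8 members, both with the opposite sign on the neuronal scale, against 54.2% of all genes called in either direction and 26.8% called lower.

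*Stmn2*, or SCG10, is the stathmin best known from growth cones. It had 1265, 1357, 1425 and 1600 CPM in +/+ somatodendritic replicates 1 to 4 and 406, 538, 129 and 459 CPM in the axonal replicates with the same numbers. Every axonal library was below every somatodendritic library. The log2 fold change was -1.88 ± 0.60 (SE, edgeR adjusted p = 0.0143). *Stmn2* in -/- motoneurons had 1358, 1453, 1298 and 1018 CPM in somatodendritic and 994, 406, 73.0 and 155 CPM in axonal libraries. Axonal replicate 1 came close to the lowest somatodendritic library without overlapping, and the other 3 axonal libraries were far below. The log2 fold change was -1.66 ± 0.59 (SE, adjusted p = 0.0278). It was -2.61 without -/- axonal replicate 1 and -1.27 without -/- axonal replicate 3. The change passed in 11 of 16 fits with 1 library left out. In the fit to the compared groups alone it did not pass (edgeR adjusted p = 0.076).

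*Stmn4*, or RB3, is the least abundant stathmin. In +/+ motoneurons it had 306, 249, 240 and 344 CPM in somatodendritic and 87.4, 94.9, 21.3 and 93.0 CPM in axonal libraries. The groups did not overlap, and axonal replicate 3 was low among its group. The log2 fold change was -1.94 ± 0.66 (SE, adjusted p = 0.0208). The -/- axonal libraries held 194, 79.7, 9.45 and 27.6 CPM against 154 to 235 CPM in the somatodendritic ones, and replicate 1 overlapped with the somatodendritic range. There the log2 fold change of -1.42 ± 0.65 (SE) did not pass, at an adjusted p of 0.0766, but passed at -2.15 (adjusted p = 0.0177) in the paired fit with the replicate block. Without -/- axonal replicate 1 it was -2.42, and without replicate 3 it was -1.01.

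*Gap43*, which encodes a substrate of protein kinase C that marks growing axons, had 953, 997, 994 and 1105 CPM in +/+ somatodendritic and 417, 530, 154 and 449 CPM in +/+ axonal libraries. The groups did not overlap, with a log2 fold change of -1.38 ± 0.51 (SE, edgeR adjusted p = 0.0301). *Gap43* in -/- motoneurons had 933, 1064, 947 and 785 CPM in somatodendritic and 887, 438, 88.6 and 205 CPM in axonal libraries. Replicate 1 of the axonal libraries fell within the somatodendritic range, and the log2 fold change of -1.20 ± 0.51 (SE) had an adjusted p of 0.0562, which became 0.0182 at -1.67 with the replicate block. It was -1.94 without -/- axonal replicate 1 and -0.83 without replicate 3. *Stmn3*, or SCLIP, passed in neither genotype in the fit to all 16 libraries without the replicate block. It passed in -/- motoneurons with the block, at -1.56 (edgeR adjusted p = 0.0446). In +/+ motoneurons it passed in the fit to the compared groups alone, at -1.19 (edgeR adjusted p = 0.01). Some fits with libraries left out called it as well. Its log2 fold changes were -1.21 ± 0.56 (SE, adjusted p = 0.0749) in +/+ and -0.95 ± 0.56 (SE, adjusted p = 0.163) in -/- motoneurons, with 128 to 397 CPM in +/+ axonal and 661 to 761 CPM in +/+ somatodendritic libraries. The -/- value was -1.86 without -/- axonal replicate 1 and -0.55 without replicate 3.

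The other 4 genes were not called between +/+ compartments. *Stmn1* had 797, 820, 815 and 1118 CPM in +/+ somatodendritic and 740, 767, 661 and 608 CPM in +/+ axonal libraries. The groups did not overlap, with a log2 fold change of -0.36 ± 0.19 (SE, edgeR adjusted p = 0.119). Without +/+ somatodendritic replicate 4 it was -0.18. The -/- groups overlapped, at -0.14 ± 0.19 (SE, adjusted p = 0.552). With 1 library left out the -/- value ran from -0.33 to 0. *Marcksl1*, which encodes a smaller relative of Marcks, had log2 fold changes of -0.25 ± 0.16 (SE, adjusted p = 0.182) in +/+ and -0.18 ± 0.16 (SE, adjusted p = 0.331) in -/- motoneurons. The +/+ groups did not overlap, with 594 to 738 CPM in axonal and 804 to 881 CPM in somatodendritic libraries. The -/- groups did, with 541 to 891 CPM and 734 to 920 CPM.

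*Basp1*, which encodes a myristoylated protein with functions like those of Gap43, differed in calls between the genotypes. In +/+ motoneurons it had 461, 462, 481 and 321 CPM in somatodendritic and 332, 457, 347 and 384 CPM in axonal libraries, which overlapped, with a log2 fold change of -0.18 ± 0.22 (SE, edgeR adjusted p = 0.489). The -/- libraries had 420, 542, 518 and 405 CPM in somatodendritic and 454, 319, 240 and 219 CPM in axonal libraries. Only axonal replicate 1 lay in the somatodendritic range, and the log2 fold change was -0.62 ± 0.22 (SE, adjusted p = 0.0272). This change did not pass with library totals, without the expression filter or in the fit to the compared groups alone. The edgeR adjusted p values there were 0.0576, 0.0545 and 0.0828. The difference between the genotypes in this change was itself not past the threshold, at a log2 value of -0.43 (standard error 0.31, unadjusted p = 0.182, adjusted p = 1).

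*Marcks*, which encodes the major myristoylated substrate of protein kinase C, rested on a single library. It had 286, 345, 361 and 344 CPM in +/+ somatodendritic and 316, 1165, 308 and 240 CPM in +/+ axonal libraries. The log2 fold change was 0.60 ± 0.40 (SE, edgeR adjusted p = 0.205). Without +/+ axonal replicate 2 it was -0.22 ± 0.21 (SE, adjusted p = 0.382). In -/- motoneurons it was -0.60 ± 0.40 (SE, adjusted p = 0.211), with 248 to 456 CPM in somatodendritic and 197 to 298 CPM in axonal libraries, and passed at -0.61 ± 0.19 (SE, adjusted p = 0.0159) when that +/+ library was left out of the fit. In +/+ axonal replicate 2 the 7 nuclear RNAs examined summed to 2650 CPM, against 632 to 1401 CPM in the other 3 +/+ axonal libraries and 653 to 988 CPM in the -/- ones, and *Hnrnpr* was at 422 CPM against 120 to 164 CPM. Their part in the *Marcks* value was not tested.

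The -/- result moved with the pairing of the libraries. In -/- motoneurons the somatodendritic and axonal libraries with the same number deviated together from their group means, and with the replicate number as a block 5 of 8 members were called lower in axons, against 27.9% of all genes in the same fit. These were *Stmn2* at -2.29 (adjusted p = 0.00836), *Stmn4* at -2.15 (adjusted p = 0.0177), *Gap43* at -1.67 (adjusted p = 0.0182), *Stmn3* at -1.56 (adjusted p = 0.0446) and *Basp1* at -0.67 (adjusted p = 0.0278), as log2 fold changes. Leaving out 1 library moved the -/- count between 0 and 5, where 26.8% of all genes were called lower with all libraries kept. The counts with 1 library left out have no share of all genes beside them and describe only how calls moved. No member was left when -/- somatodendritic replicate 2, -/- axonal replicate 3 or -/- axonal replicate 4 was dropped, and 5 were called when -/- axonal replicate 1 was dropped. Dropping -/- somatodendritic replicate 1 or 3, or -/- axonal replicate 2, left 1. In +/+ motoneurons leaving out a library gave 1 to 4 members, and *Stmn2* alone was left without +/+ axonal replicate 3. The +/+ call of *Gap43* was also lost without any 1 of the 4 +/+ somatodendritic libraries or without +/+ axonal replicate 1. Without both axonal libraries lowest in neuronal structural genes, replicate 3 of each genotype, an alternative chosen after the data were seen, 4 members were called in +/+ (*Stmn2*, *Stmn3*, *Stmn4* and *Gap43*) and 2 in -/- motoneurons (*Stmn2* and *Gap43*), against 26.4% and 25.1% of all genes called lower.

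These directions hold relative to all transcripts of a library. Relative to neuronal structural genes they were different. When libraries were scaled by the summed counts of *Nefl*, *Nefm*, *Nefh*, *Prph*, *Tubb3*, *Uchl1*, *Snap25* and *Thy1*, which encode neurofilament, tubulin and other neuronal proteins, the median of all genes shifted to a log2 fold change of 2.19 in +/+ and 2.69 in -/- motoneurons. Of all genes called in +/+ motoneurons, 97.8% were then higher in axons, against 52.4% with TMM scaling. *Stmn2* was at -0.08 in +/+ and 0.05 in -/- motoneurons on this scale, *Stmn4* at -0.17 and 0.21, *Gap43* at 0.46 and 0.66, and *Stmn3* at 0.66 and 0.78, and none of the 4 passed. *Stmn1*, *Basp1*, *Marcks* and *Marcksl1* were called higher in axons, between 1.73 for *Stmn1* and 2.47 for *Marcks* in +/+ and between 1.85 for *Basp1* and 2.39 for *Stmn1* in -/- motoneurons. Relative to the shift of all genes, these 4 lay between -0.46 and 0.28 in +/+ and between -0.84 and -0.30 in -/- motoneurons. By the same measure *Stmn2*, *Stmn3*, *Stmn4* and *Gap43* lay at -2.27, -1.53, -2.36 and -1.73 in +/+ and at -2.64, -1.91, -2.48 and -2.03 in -/- motoneurons. A scaling moves all genes of a library alike, so these differences are not independent of those found with TMM. The values of *Stmn2*, *Stmn3*, *Stmn4* and *Gap43* were farther from 0 than with TMM. TMM gave -1.88, -1.21, -1.94 and -1.38 in +/+ and -1.66, -0.95, -1.42 and -1.20 in -/- motoneurons. The medians of all genes were then 0.072 and -0.003.

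**Figure D2:**
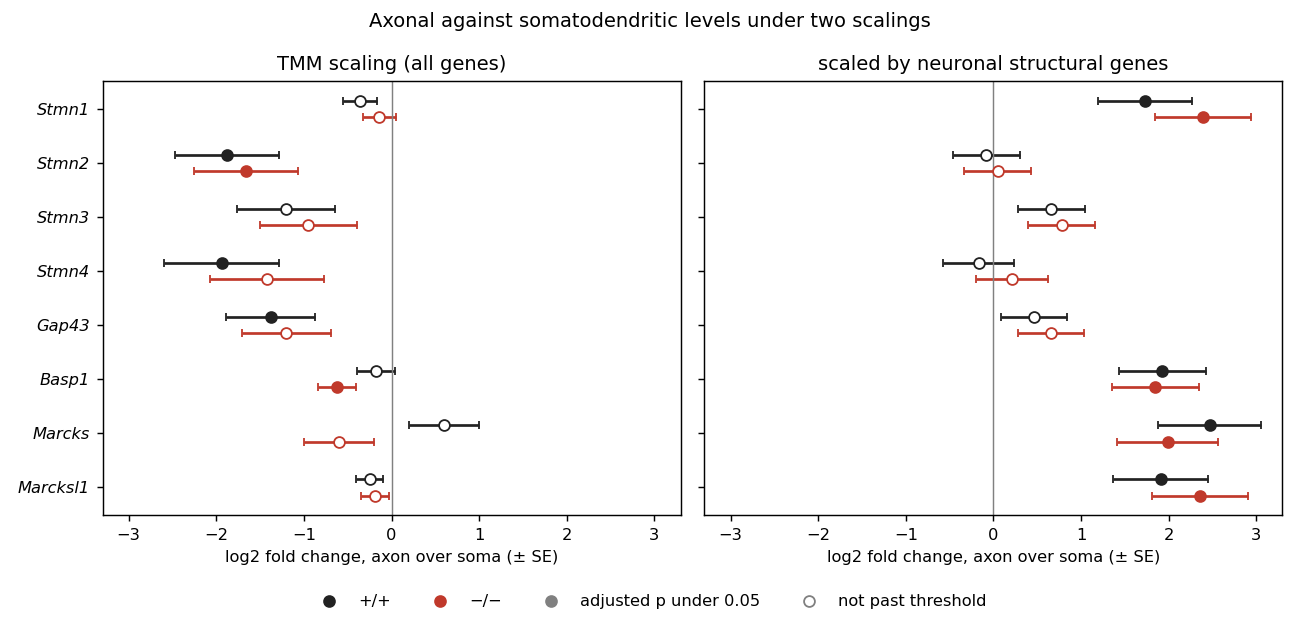
Log2 fold changes of the 8 genes between the axonal and somatodendritic compartment with their standard errors, in +/+ (black) and *Hnrnpr*-/- (red) motoneurons, with TMM scaling on the left and scaling by 8 neuronal structural genes on the right. Filled points had an adjusted p under 0.05. On the left *Stmn2*, *Stmn4* and *Gap43* in +/+ and *Stmn2* and *Basp1* in -/- motoneurons are filled and below 0, and on the right *Stmn1*, *Basp1*, *Marcks* and *Marcksl1* are filled and above 0.

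Levels among axonal libraries varied strongly for 4 of the genes. Across the 8 axonal libraries *Stmn4* varied 20.5-fold between the highest and the lowest, *Stmn3* 14.5-fold, *Stmn2* 13.6-fold and *Gap43* 10.0-fold. All 4 were highest in -/- replicate 1, second in +/+ replicate 2, seventh in +/+ replicate 3 and lowest in -/- replicate 3. *Marcks* varied 5.92-fold, through its 1 high library, *Basp1* 2.09-fold, *Stmn1* 1.94-fold and *Marcksl1* 1.65-fold. The 8 neuronal structural genes summed to 2868 CPM in -/- axonal replicate 1, 1761 in +/+ replicate 2, 534 in +/+ replicate 3 and 345 in -/- replicate 3. This order was not the same as that of the 4 genes, since -/- axonal replicate 4 was lower than +/+ replicate 3 at 466 CPM. The other 3 axonal libraries had 1207 to 1303 CPM, against 3198 to 5406 CPM in the somatodendritic libraries.

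The same libraries differed in markers of other cells. Fibroblast, meningeal and pericyte genes summed to 10360 CPM in +/+ axonal replicate 3 and 9440 CPM in -/- axonal replicate 3, and to 1132 to 6192 CPM in the other 6 axonal libraries. *Acta2*, the actin of contractile cells, led this list with 4058 CPM in +/+ axonal and 113 CPM in +/+ somatodendritic libraries. Of the 9 genes, *Mgp*, *Acta2* and *Pdgfrb* were called higher in axons in each genotype and none lower, 33.3% of the list against 57.5% and 54.2% of all genes called in either direction. *Col3a1*, *Dcn* and *Lum* had log2 fold changes of -0.53, -0.40 and -0.60 in -/- motoneurons and did not pass. All 8 genes of dividing progenitors were called higher in axons in both genotypes, with a median log2 fold change of 2.38 in +/+ and 2.25 in -/- motoneurons. Among 9 genes of astrocytes and radial glia *Fabp7*, *Sox9*, *Aldh1l1* and *Slc1a3* were called higher in +/+ and the first 2 in -/- axons, among 7 tested of oligodendroglia and Schwann cells *Olig1* in both, and among 8 of microglia *Tmem119* in both. The part of these cells in the axonal levels of the 8 genes was not tested.

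**Figure D3:**
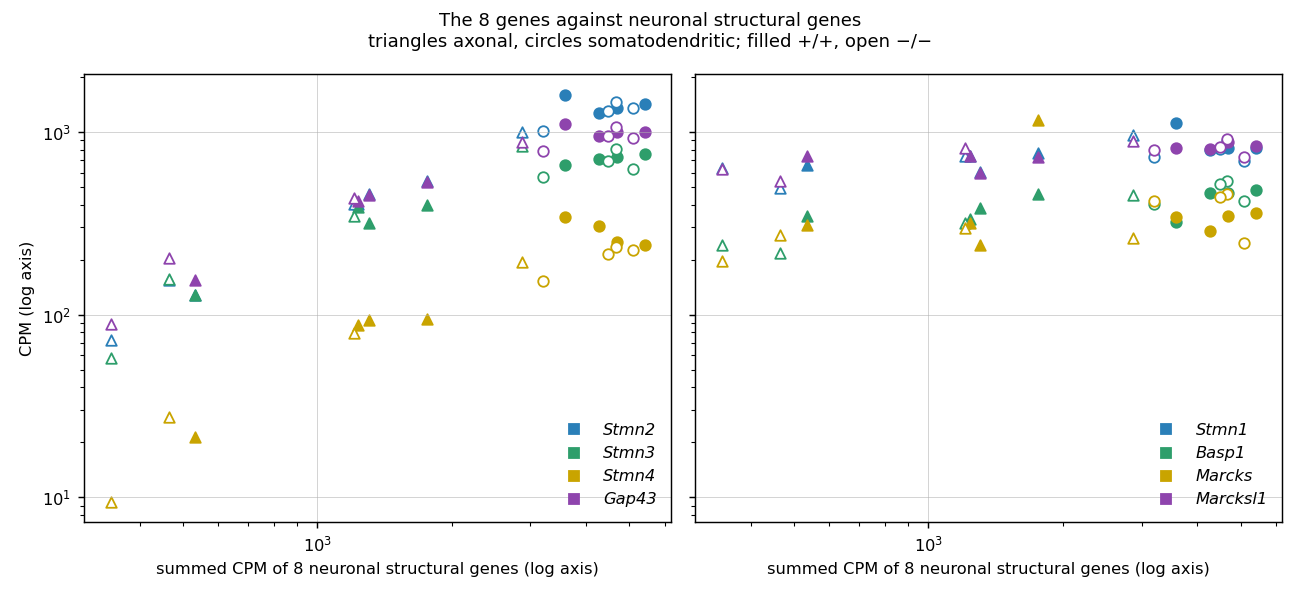
CPM of each of the 8 genes in the 16 libraries against the summed CPM of 8 neuronal structural genes in the same library, both on log axes. Triangles are axonal and circles somatodendritic libraries, filled for +/+ and open for *Hnrnpr*-/-. On the left *Stmn2*, *Stmn3*, *Stmn4* and *Gap43* rise from the library with 345 CPM of neuronal genes, where *Stmn4* is at 9.45 CPM, to that with 2868 CPM, where it is at 194 CPM. On the right *Stmn1*, *Basp1*, *Marcks* and *Marcksl1* span a narrower range, 1.65-fold to 2.09-fold among axonal libraries for all but *Marcks*, which has 1 value of 1165 CPM.

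The make-up of the stathmin family shifted with this division. Of the summed stathmin CPM per kb, *Stmn1* held 35% ± 2.87 (SD, n = 4) in +/+ and 34.7% ± 2.5 in -/- somatodendritic libraries. In axons its share was 57.8% ± 12.5 in +/+ and 61.9% ± 19.6 in -/- libraries, with single values of 53.5, 51.3, 76.4 and 49.9% and of 39.7, 55.3, 86.3 and 66.4%. Every axonal library had a larger *Stmn1* share than every somatodendritic library, of which the highest was 39.3%. *Stmn2* held 31.2% ± 0.915 of the stathmin sum in +/+ somatodendritic and 16.4% ± 5.78 in +/+ axonal libraries, and *Stmn3* 26.7% ± 3.35 and 22.3% ± 5.72. *Stmn4* held 7.09% ± 0.958 and 3.58% ± 1.41. A share is free of library scaling, but a larger share of *Stmn1* does not say which stathmin changed in amount.

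**Figure D4:**
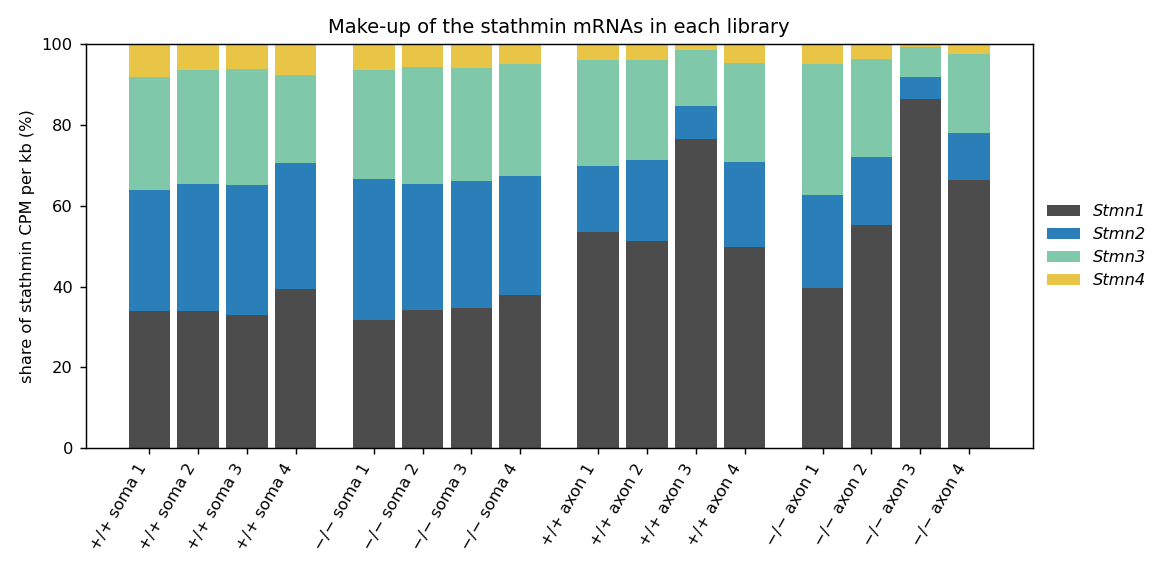
Share of each stathmin gene in the summed stathmin CPM per kb of exon, as stacked bars to 100% for each of the 16 libraries. *Stmn1* (dark grey) takes 31.8 to 39.3% in the 8 somatodendritic and 39.7 to 86.3% in the 8 axonal libraries, and is largest in -/- axonal replicate 3.

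Ratios of levels per length within a library described the same shift. *Stmn2* over *Stmn1* was 0.777 to 1.10 in the 8 somatodendritic and 0.064 to 0.577 in the 8 axonal libraries, without overlap. *Gap43* over *Stmn2* was 0.998 to 1.12 in somatodendritic and 1.30 to 1.92 in axonal libraries, again without overlap. *Stmn4* over *Stmn2* was 0.170 to 0.273 in somatodendritic and 0.146 to 0.243 in axonal libraries and overlapped widely. Among the membrane proteins, *Gap43* held 48.1% ± 2.93 of the sum of its group per length in +/+ somatodendritic and 27.3% ± 9.19 in +/+ axonal libraries, while *Marcksl1* held 32.4% ± 0.821 and 42.6% ± 9.47.

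The comparison of genotypes asks whether the loss of hnRNP R changes the level of these mRNAs in either compartment. No member passed the adjusted threshold in axons, against 2 of 19964 genes or 0.01% of all genes, or in the somatodendritic compartment, against 1 gene or 0.00501%. The gene called in both compartments was *Hnrnpr* itself, and the other in axons was *Gm13373*, named after its value was seen, at a log2 fold change of 6.37. At an unadjusted p under 0.05 there was 1 member in axons, among 775 genes, and 0 in the somatodendritic compartment, among 120 genes. DESeq2 with default settings called 0 members, and 5 and 1 genes, in the respective compartments.

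In axons the stathmins and *Gap43* had fold changes near 1 with wide errors. *Stmn2* averaged 407 ± 416 CPM (SD, n = 4) in -/- and 383 ± 178 CPM in +/+ axonal libraries, with a log2 difference of 0.09 ± 0.58 (SE). *Stmn3* was at 0.19 ± 0.55 (SE), *Stmn4* at 0.06 ± 0.64 (SE) and *Gap43* at 0.06 ± 0.50 (SE). Without -/- axonal replicate 1 these 4 values became -0.86, -0.72, -0.93 and -0.67, with adjusted p values of 0.746 to 0.771 from edgeR. Without +/+ axonal replicate 3 they became -0.19, -0.06, -0.23 and -0.19, so their sign was not stable against the omission of either library. The errors were smaller for *Stmn1* at 0.03 ± 0.19 (SE) and *Marcksl1* at 0.04 ± 0.16 (SE). *Basp1* was at -0.30 ± 0.22 (SE) with 218 to 454 CPM in -/- and 332 to 457 CPM in +/+ axons. It was -0.55 without -/- axonal replicate 1 and -0.17 without -/- axonal replicate 4. *Marcks* had the largest genotype value in axons at -0.98 (standard error 0.40, unadjusted p = 0.0265, adjusted p = 1 from edgeR), and without +/+ axonal replicate 2 it was -0.16 ± 0.21 (SE).

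In the somatodendritic compartment the largest value among the members was that of *Stmn4*. It had 225, 235, 216 and 154 CPM in -/- against 306, 249, 240 and 344 CPM in +/+ libraries, so that the groups did not overlap. The log2 fold change was -0.45 (standard error 0.64, unadjusted p = 0.488, adjusted p = 1 from edgeR). With a fit to the somatodendritic libraries alone, in which the error does not draw on axonal libraries, it was -0.44 (standard error 0.16, unadjusted p = 0.0173, adjusted p = 0.999). The other 7 members lay between -0.19 for *Stmn1* and 0.23 for *Marcks*, in each case with overlapping groups. The errors of *Stmn2*, *Stmn3* and *Gap43* were likewise smaller in the fit to this compartment, at 0.12, 0.11 and 0.10 around log2 fold changes of -0.13, -0.07 and -0.11.

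**Figure D5:**
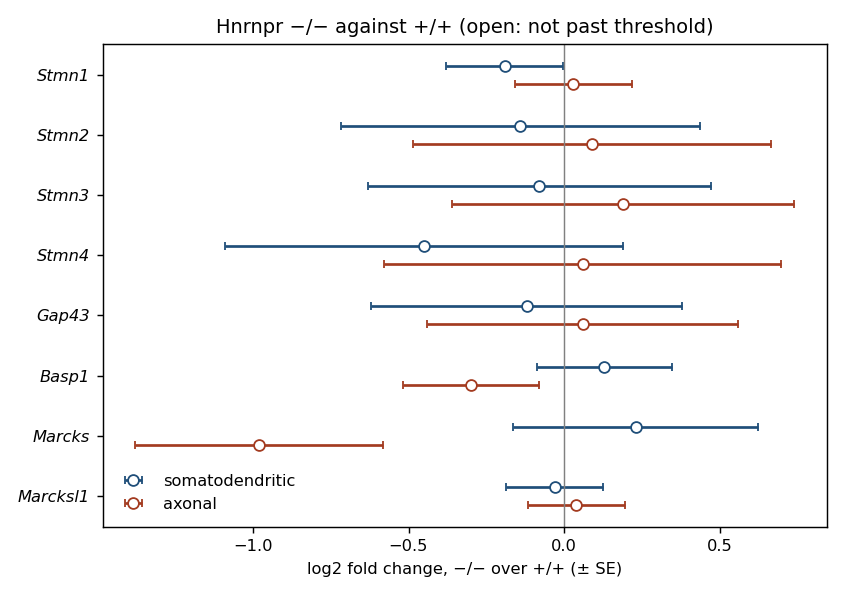
Log2 fold changes of the 8 genes between *Hnrnpr*-/- and +/+ motoneurons with their standard errors, in the somatodendritic (blue) and axonal (brown) compartment. All points are open because none had an adjusted p under 0.05. The axonal *Marcks* value of -0.98 lies farthest from 0 and rests on 1 +/+ library.

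Whether the change between compartments differed by genotype was tested as an interaction over all genes. It was called for 0 of 8 members and 0% of 19964 genes in edgeR, with 265 genes and 1 member, *Marcks*, at an unadjusted p under 0.05. DESeq2 with default settings called 1 gene and no member. *Marcks* had an interaction value of -1.20 on the log2 scale (standard error 0.56, unadjusted p = 0.048, adjusted p = 1), which was -0.39 ± 0.28 (SE) without +/+ axonal replicate 2. The standard errors of 0.71 to 0.90 for *Stmn2*, *Stmn3*, *Stmn4* and *Gap43* were larger than any of their interaction values, which ran from 0.18 to 0.52.

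Genes around these proteins in the growth cone were mostly lower in axons relative to all transcripts. On the neuronal scale the medians of the 5 lists described next were 0.44 to 1.91 in +/+ and 0.84 to 2.53 in -/- motoneurons, above 0 but below the medians of all genes of 2.19 and 2.69. Of all genes called on that scale, 97.8% in +/+ and 98.8% in -/- motoneurons were higher in axons. The counts of list genes called on it are therefore not results about the lists. Among 22 partners of the growth-cone cytoskeleton and membrane, 15 were called lower and 1 higher in +/+ axons, 72.7% against 57.5% of all genes called in either direction, with a median log2 fold change of -1.27. The cell adhesion molecule *L1cam* fell from 945 ± 113 to 98.1 ± 52.5 CPM (SD, n = 4), a log2 fold change of -3.27 ± 0.66 (SE). *Dpysl5*, a member of the collapsin response mediator family, had a log2 fold change of -2.85, the adhesion molecule *Cntn2* -2.72 and the growth-cone regulator *Gprin1* -2.40. The member called higher was *Gpm6b*, a membrane protein also made by glia, at 1.06, and it was named after its value was seen. In -/- motoneurons 16 of the 22 genes were called lower and 0 higher, 72.7% against 54.2% of all genes. With neuronal scaling 7 were higher and 1 lower in +/+, and 12 and 0 in -/- motoneurons, where 97.8% and 98.8% of all called genes were higher.

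Kinases of the stathmins and their scaffolds had the highest share of called genes among these 5 lists, 92.9% in both genotypes. In +/+ motoneurons 13 of 14 were called lower in axons and 0 higher, against 27.4% of all genes called lower, with a median of -1.55, and in -/- motoneurons 13 of 14 were also lower, against 26.8% of all genes, where neuronal scaling gave 2 higher and 1 lower in +/+ and 5 and 1 in -/-. *Cdk5r1*, the activator of Cdk5, had a log2 fold change of -3.49, the JNK scaffold *Mapk8ip1* -2.49, the kinase *Camk4* -2.02 and the catalytic subunit *Prkacb* of protein kinase A -1.98. Among 14 regulators of Gap43 and the Marcks proteins, 9 were called lower and 1 higher in +/+ and 10 and 1 in -/- axons, 71.4% and 78.6% against 57.5% and 54.2% of all genes, where neuronal scaling gave 7 higher and 0 lower in +/+ and 10 and 0 in -/-. The protein kinase C genes *Prkce*, *Prkcb* and *Prkcz* had log2 fold changes of -2.45, -2.10 and -1.91, and the calmodulin gene *Calm3* was at -1.31. Called higher were *Prkcd*, another protein kinase C, at 1.14 in +/+ and *Nmt1*, which attaches myristate, at 0.52 in -/- axons, both named after their values were seen.

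Enzymes of palmitoylation were called about as often as all genes in +/+ motoneurons. Of 9, 4 were called lower and 1 higher in +/+ axons, 55.6% against 57.5% of all genes, with a median of -0.06, and *Zdhhc17* and *Zdhhc8* were the 2 called lower in -/- axons, 22.2% against 54.2% of all genes. With neuronal scaling 8 were called higher and 0 lower in each genotype, where 97.8% and 98.8% of all called genes were higher. The palmitoyltransferase *Zdhhc17* was lowest at -1.82, *Zdhhc8*, *Zdhhc5* and *Zdhhc3*, the last named after its value was seen, were at -0.73, -0.56 and -0.44, and the depalmitoylating enzyme *Lypla1* was higher at 0.91. Of 8 genes for proteins that bind *Gap43* or other axonal mRNAs, 4 were called lower and 2 higher in +/+ and 5 and 1 in -/- axons, 75% in each against 57.5% and 54.2% of all genes, where neuronal scaling gave 5 higher and 1 lower in each. The neuronal Hu proteins *Elavl2*, *Elavl3* and *Elavl4* were at -2.61, -1.52 and -1.47 and *Khsrp*, which destabilises mRNAs, at -0.76. The mRNA-binding protein *Igf2bp1* was higher in both genotypes, at 3.36 and 2.89, from 1.38 CPM in +/+ somatodendritic libraries, and *Tardbp* in +/+ at 0.50, both named after their values were seen. No gene of these 5 lists was called between genotypes in either compartment.

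The transcripts most like each member in profile were found over the 16 libraries as the root mean square difference of centred log2(CPM + 1) values, among 11226 genes with a mean of at least 10 CPM. For *Stmn2* they were *Rab3c*, a synaptic vesicle GTPase, at 0.147 and *Celf6*, an RNA-binding protein, at 0.159. *Stmn4* was closest to *Stmn2* at 0.198 and then to *Celf6* at 0.224, and *Stmn3* to *Rell2* at 0.155 and *Gap43* at 0.162. *Gap43* was closest to *Cend1* at 0.117 and *Rac3*, a neuronal GTPase, at 0.12.

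The other 4 members had different neighbours. *Stmn1* was closest to *Pdhb*, a subunit of pyruvate dehydrogenase, at 0.137 and to *Marcksl1* at 0.143, and *Marcksl1* to *Eri3* at 0.0960 and *Rab11b*. *Basp1* was closest to the long noncoding RNA *Uchl1os* at 0.172 and *Rab4a* at 0.182, and *Marcks* to *Slc24a5* at 0.215 and *Vamp7* at 0.248. Within the 8 genes the smallest differences were those of *Stmn1* with *Marcksl1*, *Gap43* with *Stmn3* and *Stmn2* with *Stmn4*, and the largest was that of *Marcks* with *Stmn4* at 1.38.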

How the data were processed

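RNA of 16 libraries, 4 for each genotype and compartment, was compared. Per the labels and the methods of the study, reads were aligned with STAR 2.7.2b to GRCm39 and counted on exons with featureCounts 1.6.4 in the reverse-strand setting, although the SMART-Seq v4 kit does not mark strand, and reads with several alignments or genes were divided. The deposited values are therefore estimated counts with fractions, as made by the authors, without normalization. They were rounded, filtered by expression, scaled by TMM factors and fitted with a quasi-likelihood model in edgeR 4.0.16 (R 4.3.3) over all 16 libraries, with Benjamini-Hochberg adjustment over 19964 genes and a threshold of 0.05. The standard error is the log2 fold change divided by the square root of F. DESeq2 1.42.0 was an alternative. Tests are two-sided, and the model was tested on simulated data. The exon length in the deposited table was used for levels per kilobase.

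The 8 genes and the gene lists were chosen with earlier results of these data known. Named from each list of partners were up to 4 genes past the threshold with the largest change between +/+ compartments and a mean of at least 10 CPM, for each member the 2 genes of most similar profile, list markers that stood apart, and *Hnrnpr*. Total counts of 22024923 to 34864151 set the counting error, and since PCR copies carried no molecular identifiers, this covers counting error only. The labels do not say that replicates are separate cultures, whereas the methods call them biological replicates. If they were not, p values would measure technical spread. Deviations of same-numbered libraries from their group means correlated at 0.464, 0.129, 0.31 and 0.601 between the compartments of -/- motoneurons, each library most with its own number, so there the numbers were taken to pair the libraries. In +/+ motoneurons they were 0.296, 0.332, 0.342 and 0.063. No protein sequences were used here. Coding sequences were aligned with Biopython 1.88. One row with a related name is not reported here.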

Additional observations from a re-analysis of the deposited data

Results flagged for a closer look

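Among the 32 groups of 4 values formed by the 8 genes and the 4 groups of libraries, 5 held a library farther from the others than Dixon's 95% critical value allows, where chance flags about 1 group in 20. All 5 were +/+ groups. *Marcks* had 1165 CPM in +/+ axonal replicate 2, against 240 to 316 CPM in the other 3 libraries. *Stmn4* had 21.3 CPM in +/+ axonal replicate 3, against 87.4 to 94.9 CPM. *Marcksl1* had 594 CPM in +/+ axonal replicate 4, against 732 to 738 CPM, which stands out because the other 3 values were close together. Both remaining cases were in +/+ somatodendritic replicate 4, where *Stmn1* was high at 1118 CPM, against 797 to 820 CPM, and *Basp1* low at 321 CPM, against 461 to 481 CPM.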

How the results depend on the processing

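In +/+ motoneurons the 3 members called between compartments were *Stmn2*, *Stmn4* and *Gap43* under every alternative that kept all libraries, apart from the scaling by neuronal structural genes and the fit to the compared groups alone, which added *Stmn3*. The count ran from 1 to 4 when 1 library was left out. In -/- motoneurons the count of 2 became 1 with library totals or no expression filter, 4 with DESeq2 at default settings and 3 with its prior, all lower in axons, 4 with the scaling by neuronal genes, all higher in axons, 0 in the fit to the compared groups alone and 5 with the replicate block, and ran from 0 to 5 when 1 library was left out. The cause was not tested. No share of all genes called in the same fits stands beside these counts here, which describe only how calls moved. The replicate block changed no other count of members. Between genotypes and for the interaction no member was called under any alternative run.

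The scaling by neuronal structural genes turned 5 log2 fold changes between +/+ compartments, to 1.73 for *Stmn1*, 0.66 for *Stmn3*, 0.46 for *Gap43*, 1.93 for *Basp1* and 1.91 for *Marcksl1*. It turned all 8 in -/- motoneurons, to 2.39 for *Stmn1*, 0.05 for *Stmn2*, 0.78 for *Stmn3*, 0.21 for *Stmn4*, 0.66 for *Gap43*, 1.85 for *Basp1*, 1.99 for *Marcks* and 2.36 for *Marcksl1*. Between genotypes in axons it gave 0.00 for *Stmn2*, -0.10 for *Stmn4* and 0.11 for *Basp1*. It also turned *Marcksl1* in the somatodendritic compartment, to 0.03, where library totals gave 0.00. Without a change of sign, it moved the axonal genotype values of *Stmn1* to 0.49, *Marcksl1* to 0.48 and *Marcks* to -0.17, and the *Marcks* interaction to -0.48. With the replicate block the genotype values in axons were -0.16 for *Stmn2*, -0.06 for *Stmn3*, -0.24 for *Stmn4* and -0.11 for *Gap43*, and the interaction values -0.25, -0.23, -0.02 and -0.16. The numbers were not taken to pair libraries elsewhere, since at least 1 same-numbered pair correlated at under 0.1. In +/+ motoneurons replicates 1 to 3 did correlate best with their own number and replicate 4 did not (0.063), and between genotypes in axons replicates 2 and 3 did (0.466 and 0.851).

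With 1 library left out, signs changed for *Marcks* between +/+ compartments (-0.22 to 0.88) and for *Marcksl1* between genotypes in the somatodendritic compartment (-0.07 to 0.03). Between genotypes in axons the ranges were -0.15 to 0.17 for *Stmn1*, -0.86 to 0.45 for *Stmn2*, -0.72 to 0.55 for *Stmn3*, -0.93 to 0.44 for *Stmn4*, -0.67 to 0.41 for *Gap43* and -0.08 to 0.16 for *Marcksl1*. Interaction values ranged from -0.72 to 0.57 for *Stmn2*, -0.64 to 0.62 for *Stmn3*, -0.48 to 0.89 for *Stmn4*, -0.55 to 0.51 for *Gap43* and -0.05 to 0.18 for *Marcksl1*.

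Of the gene lists, called palmitoylation enzymes numbered 5 in +/+ motoneurons, 3 with library totals, no filter or the compared groups alone, and 8 with neuronal scaling. In -/- motoneurons they numbered 2, 8 with neuronal scaling, and 1 with library totals, either other filter, DESeq2 with a prior or the block. Neuronal scaling gave 8 growth-cone partners in place of 16 and 3 stathmin kinases in place of 13 in +/+, and 6 kinases in place of 13 in -/- motoneurons. Without 1 library, called palmitoylation enzymes ranged from 3 to 5 in +/+ and 1 to 4 in -/-, called Gap43 and Marcks regulators from 6 to 11 in +/+, and called mRNA-binding genes from 3 to 6 in -/- motoneurons. The level of *Marcksl1* in +/+ somatodendritic libraries was 491.9 CPM per kb with library totals. Genes called between genotypes in axons numbered 2, or 5 with DESeq2 and 1 with the block, the compared groups alone or neuronal scaling. *Stmn4* had 315 counts in its lowest axonal library, and the effect of depth on its value was not tested.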
